A study of Rattus norvegicus with 9 samples.

Results

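The genes described here encode microtubule-associated proteins and collapsin response mediator proteins (CRMPs) in cultured rat retinal ganglion cells. They were the 10 genes Map1a, Map1b, Map2, Mapt, Dcx, Dclk1, Dpysl2, Dpysl3, Dpysl4 and Dpysl5. A transcript cluster, the unit an array of this kind summarises into 1 value, was taken when its annotation named exactly 1 of these symbols. Each gene had 1 such cluster, so that 10 of 36685 clusters were described, and all 10 lay above the level filter that kept 18343 clusters for testing.

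Retinal ganglion cells are the projection neurons of the retina, and their axons form the optic nerve. The cells came from Sprague Dawley rats at postnatal day 4 and had been isolated with antibody-coated dishes (immunopanning). All 3 groups received pMAX-GFP by electroporation, together with one further construct: mCherry in the controls, wild-type Set-β in the group wt_Set, or myr-Set-β in the group myr_Set. Sorting on the day after electroporation selected green cells, not the second construct itself. The green cells were kept on laminin until RNA was extracted on the third day. Titles call the 3 arrays of a group biological replicates but name no litter or culture, so p-values reflect only array-to-array spread, part of which may be technical. No cluster carried the symbol Set alone or among several symbols, and the levels of the transfected constructs were not checked here.

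Microtubules are the tracks along which axons grow and carry cargo. Structural microtubule-associated proteins bind along the polymer and stabilise it, doublecortin and its kinase relative bind between the protofilaments, and CRMPs bind tubulin and carry semaphorin signals to the growth cone. Phosphorylation loosens many of these proteins from microtubules. Set inhibits protein phosphatase 2A, a major phosphatase of tau, the product of Mapt, but arrays measure transcripts and not phosphorylation. The comparisons ask whether either form of Set-β goes with a different transcript level of these genes.

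The arrays differed in signal range, which bears on abundant transcripts such as these. Intensities had been scaled by the authors to a median of 100 on each array, which leaves the width of the signal free. Signal range, taken as the span between the 10th and 90th percentiles of the log2 values, averaged 4.45 in mCherry (SD 0.146, n = 3), 4.16 in wt_Set (SD 0.0471) and 4.16 in myr_Set (SD 0.318). The widest array was mCherry replicate 1 (4.54) and the narrowest myr_Set replicate 1 (3.825). In exact permutation tests (two-sided), wt_Set differed from mCherry at p = 0.1, below which 3 against 3 arrays cannot go, and myr_Set at p = 0.2. All 14 ganglion cell markers passed the level filter, 5 of them above the 95th percentile of odorant receptor genes (1128 clusters, a mark of dim signal) on every array, and their summed linear intensity ran from 10733 to 18379 in mCherry, 6775 to 12133 in wt_Set and 7371 to 12690 in myr_Set. Summed markers of glia and progenitors (10 of 12 with a cluster) ran from 1162 to 5232, 1005 to 4295 and 1298 to 4957 in the same order, and those of endothelial, mural and fibroblast cells (8 of 11) from 849 to 7803, 854 to 4904 and 878 to 7476. Those of microglia and macrophages (10 of 10) ran from 1307 to 1965, 1330 to 2267 and 1275 to 2083. Amacrine and horizontal markers (10 of 10) ran from 1080 to 1392, 982 to 1068 and 1026 to 1142, and photoreceptor and bipolar markers (9 of 11) from 704 to 852, 810 to 827 and 712 to 789. In these other lists 4 of 10, 6 of 8, 8 of 10, 5 of 10 and 2 of 9 genes with a cluster passed the level filter, in the order named. None, 0 in each list, lay above the odorant mark on every array. Vim and Tyrobp exceeded it on 8 of 9 arrays, Tagln on 7, and Cd68, Lyz2 and Pdgfrb on 6. The sums therefore mix such genes with others that did not pass the level filter. Of the tested genes, 6 of 8 microglial markers were higher than mCherry in both comparisons (medians 0.083 and 0.040), and 2 of 4 glial markers in wt_Set and 3 of 4 in myr_Set. Cx3cr1, the microglial fractalkine receptor, had 0.73 ± 0.19 (SE) and 0.68 ± 0.19, and C1qa, a complement subunit, 0.62 ± 0.24 and 0.66 ± 0.24, each with a limma adjusted p of 0.447 and above the odorant mark on 0 of 9 arrays. These 2 genes were picked outside the naming rule given below, and Cx3cr1 had the highest difference of its list in both comparisons. They do not stand for the list, whose medians were near 0. In each comparison 2 of 8 tested microglial markers were lower, down to -0.52 in wt_Set and -1.48 in myr_Set. The part of any of these cell types in the results was not tested.

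Levels are log2 intensities, listed for replicates 1, 2 and 3 of each group, and a level of one cluster is not set against that of another. Map1b, a heavy microtubule-associated protein that is prominent in growing axons, had 11.35, 10.55 and 10.52 in mCherry, 10.70, 10.55 and 9.81 in wt_Set, and 9.54, 10.57 and 10.67 in myr_Set. The groups overlapped, and 1 array stood above the rest, mCherry replicate 1, while wt_Set replicate 3 and myr_Set replicate 1 stood below. Map1a, its relative that is typical of mature neurons, had 9.17, 8.33 and 8.75 in mCherry, 8.26, 7.91 and 8.01 in wt_Set, and 7.56, 7.96 and 8.72 in myr_Set. Every wt_Set array of Map1a lay below every mCherry array, whereas myr_Set replicate 3 lay among the controls. Map1a on myr_Set replicate 1 did not exceed the odorant mark.

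Map2, a marker of dendrites in mature neurons, had 10.59, 9.75 and 9.77 in mCherry, 9.93, 9.74 and 9.03 in wt_Set, and 8.88, 9.56 and 10.06 in myr_Set. Mapt, which encodes the axonal protein tau, had 9.80, 9.02 and 9.12 in mCherry, 9.12, 8.93 and 8.39 in wt_Set, and 8.20, 8.90 and 9.10 in myr_Set. Both genes overlapped between all groups and had the same extreme arrays as Map1b, with mCherry replicate 1 highest and myr_Set replicate 1 lowest. Group means of the structural proteins were 8.75 ± 0.42 (SD, n = 3), 8.06 ± 0.18 and 8.08 ± 0.59 for Map1a in mCherry, wt_Set and myr_Set, and 10.81 ± 0.47, 10.36 ± 0.48 and 10.26 ± 0.62 for Map1b. They were 10.04 ± 0.48, 9.57 ± 0.47 and 9.50 ± 0.60 for Map2, and 9.31 ± 0.42, 8.81 ± 0.38 and 8.73 ± 0.47 for Mapt.

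In wt_Set against mCherry the fitted log2 differences of this group were -0.69 ± 0.32 (SE) for Map1a, -0.50 ± 0.32 for Mapt, -0.47 ± 0.37 for Map2 and -0.45 ± 0.38 for Map1b, with limma adjusted p between 0.447 and 0.522. None of the 4 passed 0.05. In myr_Set against mCherry the same genes had -0.67 ± 0.32, -0.58 ± 0.32, -0.54 ± 0.37 and -0.55 ± 0.38, with limma adjusted p between 0.447 and 0.474. Between the forms of Set the differences ran from -0.094 for Map1b to 0.023 for Map1a, with 95% intervals of -0.96 to 0.77 and -0.70 to 0.75, intervals wide enough to hold differences in either direction about as large as those from mCherry.

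Dcx encodes doublecortin, a microtubule-binding protein of migrating and newly growing neurons. It had 10.29, 9.53 and 9.53 in mCherry, 9.51, 8.95 and 9.01 in wt_Set, and 8.38, 9.17 and 9.41 in myr_Set. Every array of either Set group lay below every mCherry array, by only 0.0156 between wt_Set replicate 1 and mCherry replicate 2. Group means were 9.78 ± 0.44 (SD, n = 3), 9.16 ± 0.31 and 8.99 ± 0.53. Dclk1, which joins doublecortin domains to a kinase domain, had 10.41, 9.43 and 9.83 in mCherry, 9.81, 9.57 and 8.95 in wt_Set, and 8.71, 9.56 and 9.77 in myr_Set, and its groups overlapped. Its means were 9.89 ± 0.49, 9.44 ± 0.44 and 9.35 ± 0.56.

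The differences of Dcx from mCherry were -0.63 ± 0.32 (SE) in wt_Set and -0.80 ± 0.32 in myr_Set, and those of Dclk1 were -0.45 ± 0.36 and -0.54 ± 0.36. For Dcx the limma adjusted p was 0.447 in both comparisons and for Dclk1 0.511 and 0.463, so that neither passed. Between the forms of Set, Dcx differed by -0.17 ± 0.32 and Dclk1 by -0.096 ± 0.36.

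The promoter sequences of Map1a and Dcx are shown because these are the members with 1 annotated start each whose wt_Set arrays all lay below mCherry. Such separation held for 26.4% of all tested clusters and serves only to choose which sequences to print. The sequences were cut in the same way. They are the 250 bases before the RefSeq start on assembly GRCr8, 5′ to 3′ on the strand of the gene. Capitals mark matches on either strand to the GC box GGGCGG, bound by Sp and Krüppel-like factors, and to CACCC, another core of such sites. Matches of the 2 motifs can overlap.
Map1a, chr3:128722445-128722694, plus strand: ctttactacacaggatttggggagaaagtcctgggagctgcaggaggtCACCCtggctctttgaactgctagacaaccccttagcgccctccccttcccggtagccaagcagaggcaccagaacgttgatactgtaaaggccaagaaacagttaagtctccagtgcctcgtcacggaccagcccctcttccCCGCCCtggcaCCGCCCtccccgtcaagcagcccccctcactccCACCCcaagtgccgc
Dcx, chrX:112304162-112304411, minus strand: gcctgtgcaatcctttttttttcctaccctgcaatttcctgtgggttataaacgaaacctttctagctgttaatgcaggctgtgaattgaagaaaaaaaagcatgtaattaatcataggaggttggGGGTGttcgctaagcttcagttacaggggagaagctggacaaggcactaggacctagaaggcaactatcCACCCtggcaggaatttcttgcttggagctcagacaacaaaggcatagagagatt
Map1a held 2 GC boxes and 2 CACCC matches in a window of 60.4% G and C, and Dcx 0 and 2 in one of 44.0%. Over all 33469 RefSeq windows of this length 30.5% held a GC box and 49.2% a CACCC match, with a median of 51.2% G and C. Of the members 8 of 10 had an entry, with 9 windows since Dpysl3 has 2 starts, and 6 of the 9 windows held a GC box and 6 a CACCC match. A match is a description of the letters and not a site of binding.

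Of the CRMPs, Dpysl3 (CRMP4) differed most from the controls. It had 10.23, 10.09 and 9.65 in mCherry, 9.40, 9.10 and 9.07 in wt_Set, and 8.51, 9.19 and 9.54 in myr_Set, with means of 9.99 ± 0.30 (SD, n = 3), 9.19 ± 0.18 and 9.08 ± 0.52. Neither Set group overlapped with mCherry, and mCherry replicate 2, which was the lowest control for 8 members, was close to replicate 1 here. The difference was -0.80 ± 0.28 (SE) in wt_Set, 1.74-fold lower with a 95% interval of -1.44 to -0.17 on the log2 scale, and -0.91 ± 0.28 in myr_Set, 1.88-fold lower with an interval of -1.54 to -0.28. These intervals are for 1 gene without adjustment. Unadjusted p was 0.0189 and 0.0101 in limma's fit, and the adjusted p was 0.447 in both comparisons.

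Dpysl2 (CRMP2), which binds tubulin dimers and acts in axon formation and in the response to semaphorin 3A, had 10.58, 9.66 and 9.93 in mCherry, 9.66, 9.43 and 9.20 in wt_Set, and 8.85, 9.30 and 9.87 in myr_Set. The lowest control minus the highest wt_Set array came to -0.0010, so that these groups just overlapped. Its means were 10.06 ± 0.47, 9.43 ± 0.23 and 9.34 ± 0.51 (SD, n = 3). The differences from mCherry were -0.63 ± 0.32 (SE) in wt_Set and -0.71 ± 0.32 in myr_Set, with limma adjusted p of 0.447 in both.

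Dpysl5 (CRMP5) had 10.06, 9.26 and 9.42 in mCherry, 9.32, 9.20 and 8.68 in wt_Set, and 8.71, 9.19 and 9.35 in myr_Set, with groups that overlapped and differences of -0.51 ± 0.28 (SE) and -0.50 ± 0.28. Dpysl4 (CRMP3) was the dim member, with 7.93, 6.94 and 7.41 in mCherry, 7.27, 7.24 and 7.24 in wt_Set, and 7.18, 7.41 and 7.03 in myr_Set. Dpysl4 lay above the 95th percentile of the odorant receptor genes on 1 array, mCherry replicate 1. Its differences of -0.18 ± 0.25 and -0.22 ± 0.25 are therefore those of a signal near background on the other 8 arrays. Limma's adjusted p was 0.447 for Dpysl5 in both comparisons, and 0.679 and 0.623 for Dpysl4.

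**Figure D1:**
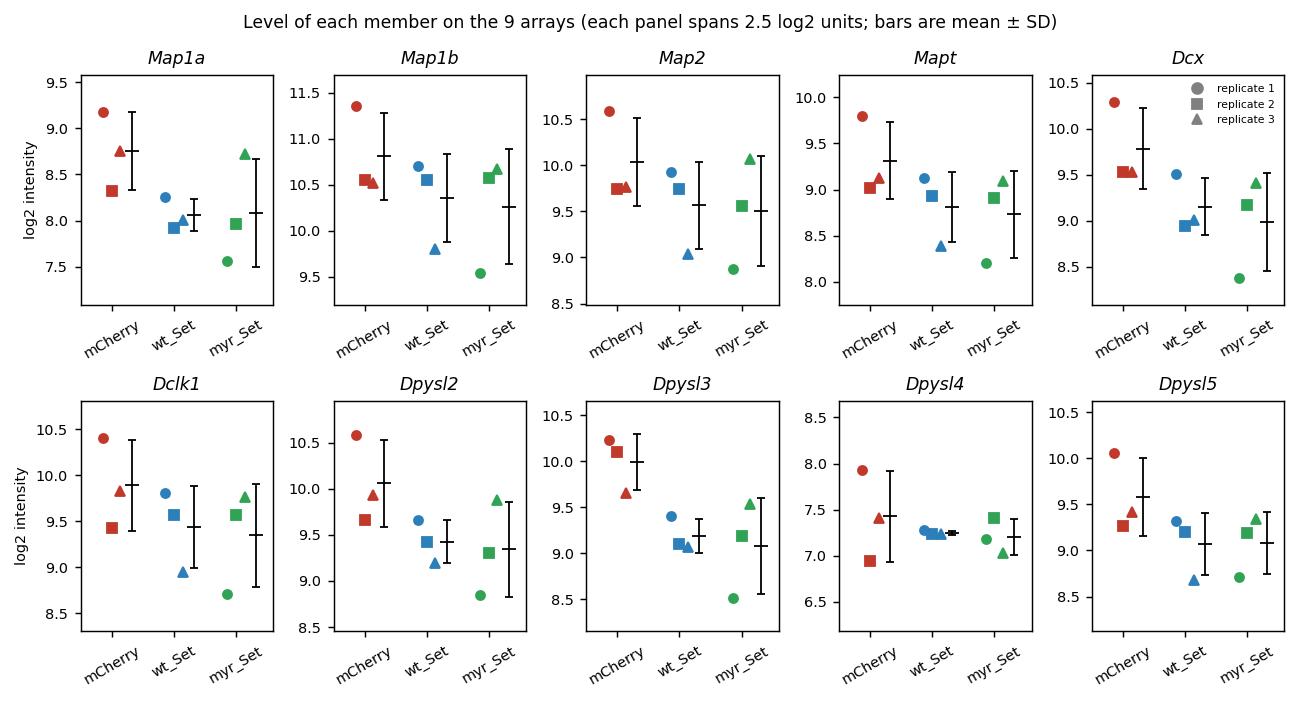
Log2 intensity (vertical axis) of the 10 members on the 9 arrays, by group, with circles, squares and triangles for replicates 1, 2 and 3 and black bars for mean ± SD of 3 arrays. Replicate 1 is the highest mCherry array in all 10 panels and the lowest myr_Set array in 9, and the Set arrays of Dcx and Dpysl3 lie below all their mCherry arrays.

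The variation over arrays was largely shared by the members. In mCherry, replicate 1 was the highest array for 10 of 10 members. The same held for wt_Set replicate 1, while wt_Set replicate 3 was lowest for 8. In myr_Set the order was turned, with replicate 1 lowest for 9 and replicate 3 highest for 9. Averaged over the members, mCherry replicate 1 lay 0.48 above its group mean and myr_Set replicate 1 lay 0.51 below its own (-0.51), about as far as the groups lay apart. Each member's correlation with the mean of the other 9 over the 9 arrays, given as a description without a test, was 0.86 to 0.99 for all but Dpysl4, where it was 0.55. The points share the same arrays and their signal range.

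The shared movement went with the signal range of the arrays. The mean deviation of the members from their own 9-array means was 0.86, 0.069 and 0.21 in mCherry, 0.11, -0.12 and -0.45 in wt_Set, and -0.73, -0.10 and 0.16 in myr_Set. Set against the signal range over the 9 arrays, Pearson's r was 0.857 and Spearman's rho 0.817, a description without a test. With each array's median fixed, a wider range tends to place abundant clusters higher, so part of this relation is built in. Pearson's r was 0.653 without myr_Set replicate 1 and mCherry replicate 1, the arrays of extreme range. At a range of 4.12 to 4.21, where 4 arrays lie (all of wt_Set and myr_Set replicate 2), the members still varied from 0.11 to -0.45.

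**Figure D2:**
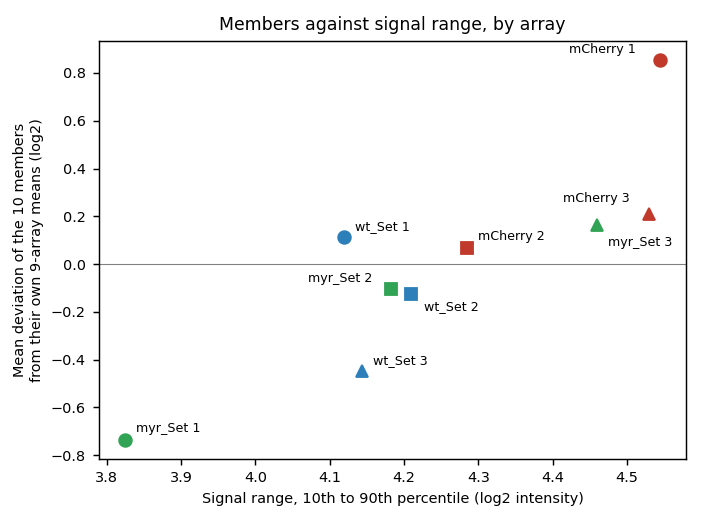
Mean deviation of the 10 members from their own means (vertical axis, log2) against signal range (horizontal axis, 10th to 90th percentile, log2 intensity), 1 point per array, coloured by group. The array of widest range, mCherry 1, has the highest value, 0.86, and that of narrowest range, myr_Set 1, the lowest, -0.73.

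Across wt_Set against mCherry all 10 members were lower in wt_Set, with a median difference of -0.51 and a range of -0.80 to -0.18. Of all 18343 clusters tested, 65.5% were lower in wt_Set, and their median was -0.18. Relative to that median the members' median was -0.32, and 9 of 10 lay below it (50% of all clusters by definition). The fit was also run on clusters of 1 symbol alone, as all members are, with the level filter set anew at their own median. That stricter filter kept 9256 of them, where the main filter kept 10714, and their median was -0.34. The members' median was -0.17 relative to that. Under limma's fit 0 members had an adjusted p under 0.05, as did 0% of all clusters, and the smallest adjusted p of any cluster was 0.447. At an unadjusted p under 0.05 there was 1 member, Dpysl3, against 10.2% of clusters in either direction and 7.13% in the lower one. The wt_Set arrays lay wholly below mCherry for 3 of 10 members (Map1a, Dcx and Dpysl3), against 26.4% of all clusters. In the most abundant class, described below, this share was 38.4%. They lay wholly above for 0 members, against 7.31% of all clusters. In bulk samples, fewer neurons among the cells and less RNA of these genes per neuron cannot be told apart.

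In myr_Set against mCherry all 10 members were again lower, with a median difference of -0.56 and a range of -0.91 to -0.22. Among all clusters 63.9% were lower and the median was -0.16, so that the members' median was -0.40 relative to it. Among clusters of 1 symbol, under the same stricter filter, the median was -0.32, and the members' median was -0.25 relative to that. No member passed an adjusted p of 0.05 in limma's fit (0% of all clusters did, with a smallest value of 0.332). At an unadjusted p under 0.05 there were 2, Dcx and Dpysl3, against 9.79% of clusters in either direction and 6.92% in the lower one. The same pair lay wholly below mCherry, against 6.85% of clusters, and 0 members lay wholly above, against 4.55%. Both comparisons use the same 3 mCherry arrays, so that a high control array enters both.

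The members belonged to the abundant part of the array, where differences from mCherry were larger in general. When the tested clusters were divided by mean level into 4 classes of equal size, 9 of the 10 members lay in the highest class and Dpysl4 in the second lowest. In the highest class the median difference over 4586 clusters was -0.43 in wt_Set and -0.46 in myr_Set, with 75.3% and 75.7% of clusters lower. In the lowest class it was -0.017 and 0.0046. Arrays lay wholly below mCherry for 38.4% (wt_Set) and 7.13% (myr_Set) of clusters in the highest class, and for 13.6% and 5.97% in the lowest. The ganglion cell markers, 14 of 14 lower in either comparison, had medians of -0.53 and -0.55, near those of the members. Of the tested microglial markers 6 of 8 were higher (medians 0.083 and 0.040). Amacrine and horizontal markers were lower for 4 of 5 in wt_Set (-0.41) and 3 of 5 in myr_Set (-0.36). Endothelial, mural and fibroblast markers were lower for 3 of 6 in both (-0.12 and -0.011). Glial markers were lower for 2 of 4 (-0.016) and 1 of 4 (0.11), and photoreceptor and bipolar markers for 1 of 2 (0.13) and 2 of 2 (-0.25). Next, mCherry replicate 1 and myr_Set replicate 1 were both left out, a choice made after the values were seen. Then 5 of 8 microglial markers were lower in wt_Set (median -0.072) and 2 of 8 in myr_Set (0.14). Ganglion cell markers were lower for 12 of 14 (-0.25) and 11 of 14 (-0.19). Endothelial, mural and fibroblast markers were lower for 5 of 6 in both (-0.65 and -0.24). Amacrine and horizontal markers were lower for 4 of 5 and 3 of 5 (-0.18 in both). Glial markers were lower for 2 of 4 in both (0.0018 and 0.052), and photoreceptor and bipolar markers for 0 of 2 (0.20) and 1 of 2 (0.0027). The part of level and of these cells in the members' differences was not tested.

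With another scaling of the arrays the members stayed below mCherry by smaller amounts. Quantile normalization, which gives all arrays 1 distribution, left medians of -0.16 in wt_Set and -0.27 in myr_Set, against medians of all clusters of -0.026 and -0.028. Cyclic loess, which removes level-dependent differences between arrays, left -0.14 in both, against -0.027 and -0.013 for all clusters. All 10 members were lower than in mCherry under either method. Dpysl3 kept the largest difference, with -0.45 ± 0.22 (SE) in wt_Set and -0.60 ± 0.22 in myr_Set by the quantile method. By the loess method it had -0.43 ± 0.20 and -0.45 ± 0.20. After either method the arrays of 1 member, Dpysl3, did not overlap between myr_Set and mCherry (6.23% and 6.18% of all clusters lay wholly below), and 0 members did so for wt_Set (11.6% and 12.1% of all clusters).

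**Figure D3:**
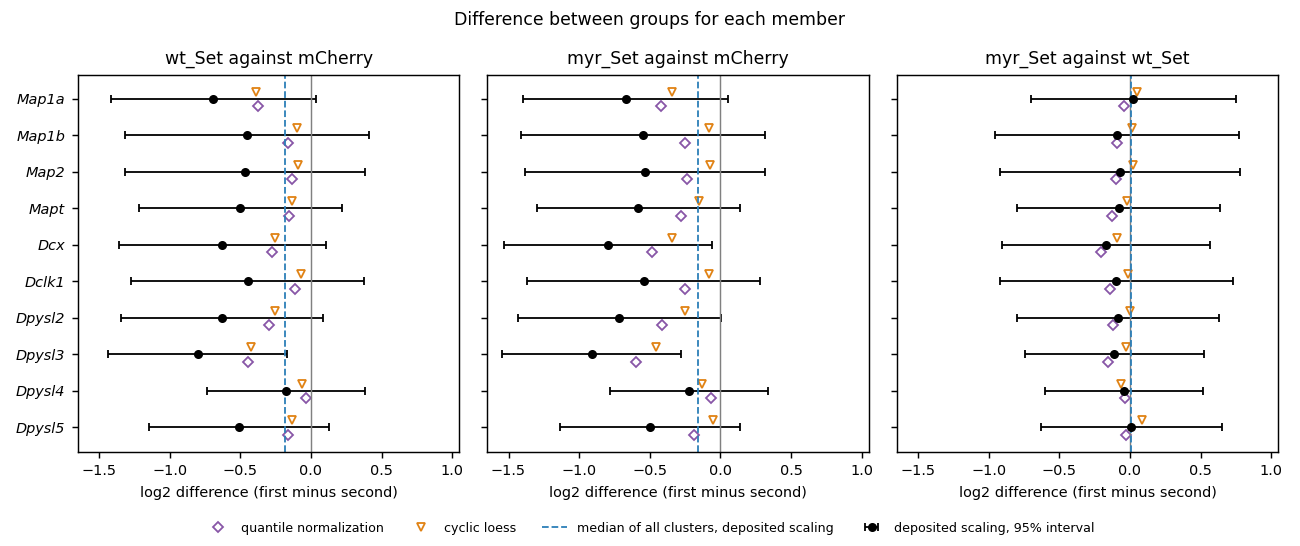
Log2 difference between groups (horizontal axis, first group minus second) for each member, with filled circles and 95% intervals of the fit on the deposited scaling, open diamonds for quantile normalization, open triangles for cyclic loess and a dashed line at the median of all clusters. Differences from mCherry lie below 0 for all 10 members under the 3 scalings and are smaller after either normalization, and those between the Set groups lie near 0.

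The size of these medians rested on a few arrays. Without mCherry replicate 1 the median of the members was -0.26 in wt_Set and -0.31 in myr_Set, with 9 of 10 members lower. Without wt_Set replicate 3 it was -0.30 in wt_Set, and without myr_Set replicate 1 it was -0.31 in myr_Set. With mCherry replicate 1 and myr_Set replicate 1 both left out, a choice made after the values were seen, the median in myr_Set was -0.073, with 6 of 10 members lower, and Dpysl3 had -0.51. With array weights, an option of limma that lets arrays count unequally, Map1a, Dpysl2 and Dpysl3 passed in myr_Set (adjusted p 0.0113, 0.0165 and 0.0139), along with 5903 clusters in all. The estimate of these weights did not converge and gave myr_Set replicate 2 a weight of 165 against 0.151 and 0.179 for the other 2 arrays of its group. With gene-by-gene weights no cluster passed.

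**Figure D4:**
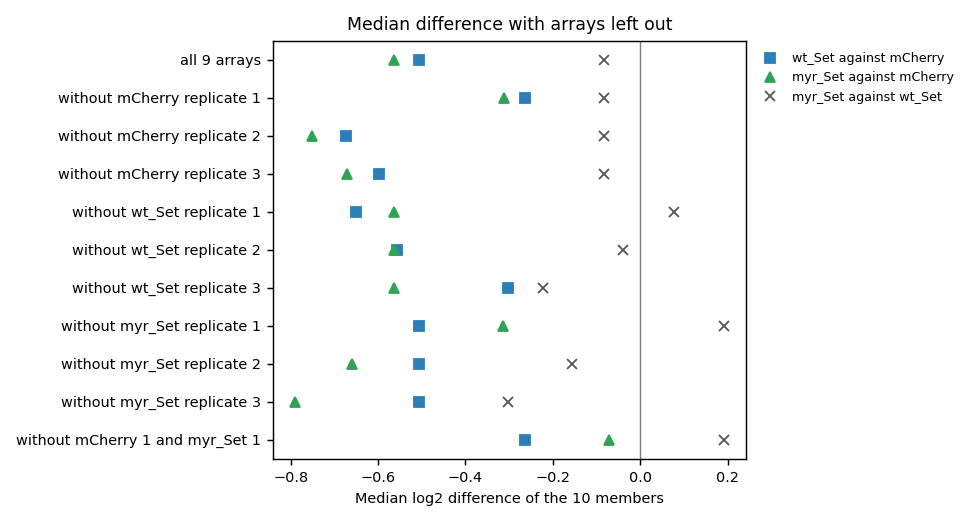
Median log2 difference of the 10 members (horizontal axis) with all 9 arrays, with each array left out in turn and with the highest and lowest left out together (vertical axis), for the 3 comparisons. The medians against mCherry lie below 0 in every case shown, and that of myr_Set moves from -0.56 to -0.073 when mCherry 1 and myr_Set 1 are both left out.

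Between myr_Set and wt_Set the members' median difference was -0.083 and ran from -0.17 for Dcx to 0.023 for Map1a. There were 8 of 10 members lower in myr_Set, against 48.5% of all clusters. The order of group means was mCherry above wt_Set above myr_Set for 8 members, with the Set groups in the other order for Map1a and Dpysl5. All limma adjusted p-values were 1, with 0% of clusters passing. At an unadjusted p under 0.05 there were 0 members, against 1.13% of clusters in either direction and 0.567% in the lower one. No member's arrays were separate between the forms, where 1.76% of all clusters lay wholly below and 2.63% wholly above. The 95% interval of the difference was -0.74 to 0.52 for Dpysl3 and -0.90 to 0.56 for Dcx, and for Dcx this still holds a difference as large as that of either form from mCherry. Directions were not stable: without myr_Set replicate 1 the median was 0.19 with 1 of 10 members lower, without wt_Set replicate 1 it was 0.077, and after cyclic loess 5 of 10 were lower.

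Ratios within an array cancel a common multiplicative factor but not a difference in signal range between arrays, and 4 were compared in 12 exact permutation tests. The log2 ratio of Map1a to Map1b, the mature to the growth-stage protein, had group means, in the order mCherry, wt_Set and myr_Set, of -2.06 ± 0.25 (SD, n = 3), -2.30 ± 0.44 and -2.18 ± 0.37. For Dclk1 to Dcx the ratio was 0.11 ± 0.20, 0.29 ± 0.34 and 0.36 ± 0.037, and all 3 myr_Set arrays (0.32, 0.40 and 0.36) lay above the mCherry arrays (0.11, -0.096 and 0.30). That separation, 0.25 in size, has an exact permutation p of 0.1, the smallest possible, and an adjusted p of 0.9. Dpysl3 to Dpysl2 was -0.066 ± 0.43, -0.24 ± 0.10 and -0.26 ± 0.13, where the wide spread in mCherry came from replicate 2 (0.43, against -0.35 and -0.28). Dpysl5 to Dpysl2 was -0.48 ± 0.070, -0.36 ± 0.14 and -0.26 ± 0.23. The adjusted p was 0.9 for each of the 12 exact permutation tests, so no shift of one member against its relative was detected, in a design that cannot reach 0.05.

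Other genes of the microtubule system were also lower than mCherry in most cases, and 0 of 71 tested passed limma's adjusted p of 0.05 in either comparison. At an unadjusted p under 0.05 there were 8 in wt_Set and 10 in myr_Set, all lower. These are 11.3% and 14.1% of the 71, against 7.13% and 6.92% of all clusters in the lower direction. Among 11 tested relatives of the members the median difference was -0.45 in wt_Set (11 of 11 lower) and -0.50 in myr_Set (9 of 11). Crmp1, the remaining CRMP, was added after its value was seen and had -0.56 ± 0.30 (SE) in both, like the brighter members. Over the 11 relatives the differences ran from -0.69 to -0.077 in wt_Set and from -0.60 to 0.051 in myr_Set. Map7d1, which helps recruit kinesin, had -0.37 ± 0.23 and -0.59 ± 0.23, and Map1lc3a, a light chain of the heavy proteins and an autophagy protein, -0.69 ± 0.32 and -0.50 ± 0.32. The 16 tested proteins of microtubule ends had medians of -0.39 and -0.41 (16 of 16 lower in both). Among them Mapre1, which encodes the end-binding protein EB1, had -0.70 ± 0.26 and -0.63 ± 0.26, and Camsap1, which protects minus ends, -0.61 ± 0.27 and -0.58 ± 0.27.

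Severing enzymes, with 3 tested genes, had medians of -0.51 and -0.53 (3 of 3 lower in both). Spast, encoding spastin, had -0.76 ± 0.29 (SE) in wt_Set and -0.53 ± 0.29 in myr_Set, and Katna1, the catalytic subunit of katanin, -0.51 ± 0.29 and -0.53 ± 0.29. Enzymes that modify tubulin had medians of -0.42 and -0.28 (12 of 12 lower in both). Ttl, the ligase that restores the terminal tyrosine of α-tubulin, had -0.99 ± 0.32 and -0.67 ± 0.32. Agtpbp1, which trims glutamates from tubulin, had -0.72 ± 0.30 and -0.78 ± 0.30.

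Kinases that act on these proteins had medians of -0.55 (19 of 19 lower) and -0.59 (17 of 19), near those of the members. Mark3, of the family that phosphorylates tau in its microtubule-binding repeats, had -0.56 ± 0.34 (SE) and -0.82 ± 0.34, and Mapk8, which encodes the kinase JNK1, -0.59 ± 0.26 and -0.68 ± 0.26. Partners of CRMPs had -0.63 and -0.52 (10 of 10 lower in both). Nrp1, the neuropilin that binds semaphorin 3A, had -0.70 ± 0.25 and -0.58 ± 0.25, and Wasf1, an actin regulator of the WAVE complex, -0.73 ± 0.29 and -0.58 ± 0.29. Each gene named in these lists had a limma adjusted p between 0.447 and 0.454. Several were dim: on the 3 wt_Set arrays Map7d1, Map1lc3a, Camsap1, Katna1, Ttl and Mapk8 were never above the odorant mark, and Katna1 exceeded it on 1 of 9 arrays, so that their differences rest on levels near background in at least that group. The differences shrank by unequal amounts when the arrays were rescaled. Mapre1 in myr_Set, for example, had -0.31 by the quantile method and -0.20 by the loess method. Katna1 in myr_Set had -0.495 and -0.53, and Ttl in wt_Set -0.86 and -0.92, in the same order. The named genes other than Crmp1, whose rescaled values are not given here, stayed below mCherry under both. With mCherry replicate 1 and myr_Set replicate 1 left out, Map1lc3a in myr_Set had 0.022 and Spast -0.096. In that setting the list medians in myr_Set were -0.079 for the relatives (7 of 11 lower), -0.095 for proteins of microtubule ends (11 of 16), -0.096 for severing enzymes (3 of 3) and -0.014 for tubulin modification (7 of 12). They were -0.19 for kinases (14 of 19) and -0.14 for partners of CRMPs (8 of 10). In wt_Set they ran from -0.42 for the partners to -0.28 for proteins of microtubule ends.

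Read against the 65.5% and 63.9% of all clusters that were lower, and the 75.3% and 75.7% in the most abundant class, the lists are described by these counts alone.

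**Figure D5:**
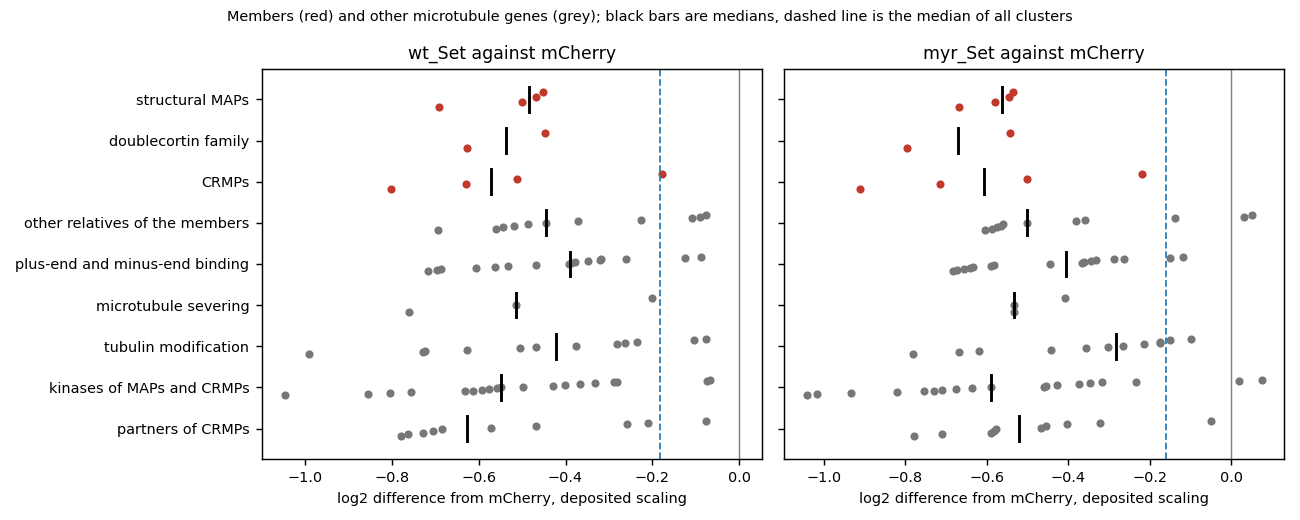
Log2 difference from mCherry (horizontal axis, deposited scaling) for members (red) and other tested microtubule genes (grey) by list (vertical axis), 1 point per gene, with black bars at list medians and a dashed line at the median of all clusters. List medians, the members' own lists included, lie between -0.67 and -0.28, below the medians of all clusters at -0.18 in wt_Set and -0.16 in myr_Set.

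The genes whose pattern over the 9 arrays was most like the mean of the members were Slc22a17, Zranb2, Atf2, Akap9 and Clasp2, chosen among 10704 clusters with 1 symbol by Pearson's r (0.996, 0.994, 0.994, 0.994 and 0.993, with Spearman's rho of 0.967 to 1). Clasp2 encodes a microtubule plus-end protein and Akap9 a scaffold of the Golgi and centrosome. Their r stayed between 0.97 and 0.986 without the 2 arrays where the members were farthest from their median. This pattern was common: 11.6% of the searched clusters had an r above 0.9 and 377 above 0.95.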

How the data were processed

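Labelled RNA of each sample was read on 1 Affymetrix Rat Gene array, and Expression Console with RMA is listed, with no version, per the submitters' processing notes. The authors deposited linear intensity values that they had brought to a common median on each array. Read depth does not apply to arrays, whose number sets the precision. Symbols came from a platform annotation table, with 18511 clusters of 1 symbol, of which 18394 matched RefSeq's gene table (GRCr8). No genome build is named for the array.

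Log2 intensities of the 9 arrays were fitted with group means in limma 3.58.1 (R 4.3.3; lmFit, eBayes, two-sided, 6 residual and 2.82 prior degrees of freedom). Clusters with a mean below 6.65 were left out, and p-values were Benjamini-Hochberg adjusted over the 18343 kept, at a threshold of 0.05. The fit was also run on simulated data in which each cluster varied independently. That run cannot show how the fit behaves under the shared movement of these arrays. Beside the members, the 2 genes of smallest p in each microtubule list were named, and Crmp1 was added after its value was seen. The markers Cx3cr1 and C1qa were named outside this rule. Members and lists were chosen with earlier results of these data known. Lists used each gene's cluster of highest mean. Ratios and signal ranges were tested with exact permutation tests. The alternatives were other scalings, level filters, an offset of 16, array weights, a replicate block, a fit of 2 groups, single-symbol clusters and arrays left out.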

Additional observations from a re-analysis of the deposited data

How the results depend on the processing

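Against mCherry, all members kept their direction under both normalizations, the level filters, the offset, the replicate block, the fit of 2 groups and single-symbol clusters, except that Dpysl4 could not be tested with the filter at the 75th percentile. No cluster passed an adjusted p of 0.05 under any alternative other than array weights, which gave 5903 clusters in myr_Set against mCherry and 1270 in myr_Set against wt_Set. The members' median in myr_Set was -0.14 with cyclic loess and -0.073 without mCherry replicate 1 and myr_Set replicate 1 together. Dpysl4 changed sign in wt_Set in that setting (0.074) and in myr_Set with array weights (0.028). With mCherry replicate 1 and myr_Set replicate 1 left out together, Map1b (0.084), Map2 (0.054), Dclk1 (0.034) and Dpysl4 (0.044) also changed sign in myr_Set. With single arrays left out, Dpysl4 ran from -0.42 to 0.074 in wt_Set and from -0.46 to 0.031 in myr_Set. The ratio of Dpysl3 to Dpysl2 then ran from -0.31 to 0.079 and from -0.34 to 0.054, and that of Map1a to Map1b in myr_Set from -0.24 to 0.090.

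Between the forms of Set the differences changed sign often. They were -0.040 for Map1a and -0.026 for Dpysl5 with quantile normalization, and 0.011 for Map1b, 0.021 for Map2 and 0.00088 for Dpysl2 with cyclic loess. Array weights gave -0.051 for Map1a, 0.18 for Map1b, 0.072 for Mapt, 0.078 for Dcx, 0.10 for Dclk1, 0.032 for Dpysl3 and 0.17 for Dpysl4. Gene-by-gene weights, added after seeing the data, gave -0.012, 0.12, 0.046, 0.022, 0.065, 0.0043 and 0.10 for the same genes. Without mCherry replicate 1 and myr_Set replicate 1 together, Map1b had 0.27, Map2 0.24, Mapt 0.19, Dcx 0.13, Dclk1 0.22, Dpysl2 0.16 and Dpysl3 0.17. With single arrays left out the ranges were -0.30 to 0.28 for Map1a, -0.37 to 0.27 for Map1b, -0.35 to 0.24 for Map2, -0.29 to 0.19 for Mapt and -0.38 to 0.13 for Dcx. They were -0.34 to 0.22 for Dclk1, -0.35 to 0.16 for Dpysl2, -0.34 to 0.17 for Dpysl3, -0.15 to 0.047 for Dpysl4 and -0.18 to 0.20 for Dpysl5. For the ratios they were -0.055 to 0.36 (Map1a to Map1b), -0.10 to 0.24 (Dclk1 to Dcx) and -0.100 to 0.030 (Dpysl3 to Dpysl2), and for the signal range -0.15 to 0.16. The signal range between the 25th and 75th percentiles differed by 0.0030. The cause of these changes was not tested.

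Clusters at an unadjusted p under 0.05 numbered 1865, 1796 and 208 in the 3 comparisons, and over the alternatives 882 to 6279, 523 to 8627 and 37 to 4514. The share of higher clusters among them, 29.9% in wt_Set, became 62.5% (quantile) and 54.5% (cyclic loess), and 29.3% in myr_Set became 57.3% and 57.7%. The labels do not say that a replicate number marks a shared culture, and deviations of same-numbered arrays correlated at -0.069 to 0.383. With the replicate block 0 clusters passed (smallest adjusted p 0.428 in wt_Set and 0.436 in myr_Set), and 1937 and 1754 had an unadjusted p under 0.05. Each member had 1 cluster, so averaging clusters per gene was not run.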
